A study of Drosophila melanogaster with 3 samples.

Results

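The Snail family genes of Drosophila melanogaster described here are sna (snail), esg (escargot), wor (worniu) and scrt (scratch), 4 of the 13945 protein-coding genes of the Ensembl annotation. They were taken by name, and each was examined over its gene span plus 20 kb on each side. For esg, wor and sna, which lie next to each other on chromosome arm 2L, the sequence between the genes was included. Chromatin immunoprecipitation sequencing (ChIP-seq) mapped CoRest, a scaffold that holds a histone deacetylase, HDAC1, and the demethylase Su(var)3-3 in 1 corepressor complex. All samples form 1 group of 3 biological replicates: mixed-sex whole embryos, 0 to 24 hours old, of 1 transgenic line that stably carries CoRest with GFP at its C terminus, precipitated with antibody to GFP. The endogenous gene is not said to be removed, the labels do not say what drives the transgene, and there is no second condition.

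Snail family proteins are zinc finger repressors that bind E-boxes, short sequences with the core CAGGTG. Sna represses neural and ectodermal genes in the presumptive mesoderm at gastrulation, and Esg, Wor and Sna have overlapping roles in neuroblasts, the neural stem cells of the fly. Esg also keeps imaginal cells diploid and marks stem cells of the adult gut, and Scrt is made across the nervous system. Fly Sna works with the corepressor CtBP, and mammalian Snail binds a complex of CoREST and the demethylase LSD1. The peaks described here show where CoRest lay at the Snail family genes themselves.

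The data were 5 lists of peaks, 1 per replicate, 1 of the pooled replicates and 1 that the authors thresholded on reproducibility. The thresholded list had 8721 peaks and the other 4 had 30000 each, and the 8721 were exactly the 8721 strongest pooled peaks. A rank below is a peak's place by the authors' signal in its own list, 1 being the strongest, and a rank with no list named is pooled. A summit is the position of a peak's highest point, and it was found in a replicate when that list had a summit within 100 bp. Lists shortened to the 8721 strongest peaks of a replicate give the spread between replicates. Read numbers were not analysed here, so depth is unknown. Replicate 1 stood apart at the 2L cluster, with 84 summits in its full list, against 31 in replicate 2 and 48 in replicate 3, and results there are also given by replicate.

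The 2L cluster held few thresholded CoRest peaks per length and none at a start site of its Snail family genes. Per protein-coding gene the thresholded list gave it as many as the genome, but no single replicate did. The cluster, from 20 kb before esg to 20 kb past sna (dm6, 2L 15313866 to 15498260), is 184395 bp long and held 5 thresholded summits, of which 1 fell in the esg interval, 3 in the wor interval and 1 in the sna interval. Of 723 stretches of the same length along the chromosomes, 23.7% had 5 or fewer. The cluster and the genome both had 0.625 thresholded summits per protein-coding gene. Stretches with few genes were not compared separately. The shortened replicate lists had 9, 2 and 3 summits there (4.67 ± 3.79, SD, n = 3), so the high count came from replicate 1. Each shortened list has 8721 peaks in the genome, and the cluster has 8 protein-coding genes. Per gene the cluster therefore lay above the genome in replicate 1 and below it in replicates 2 and 3. Around scrt on 3L (3963896 to 4014003, 50108 bp) there were 6 thresholded summits, with 4, 3 and 6 in the shortened lists (4.33 ± 1.53, SD, n = 3). When a thresholded summit was kept only if the shortened lists of 2 replicates, with the other left out, both held it, the cluster count was 2 without replicate 1, 3 without replicate 2 and 2 without replicate 3, and the scrt count was 3 in each case. Embryos were taken whole, so strong occupancy in few cells and weak occupancy in many cannot be told apart.

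**Figure D1:**
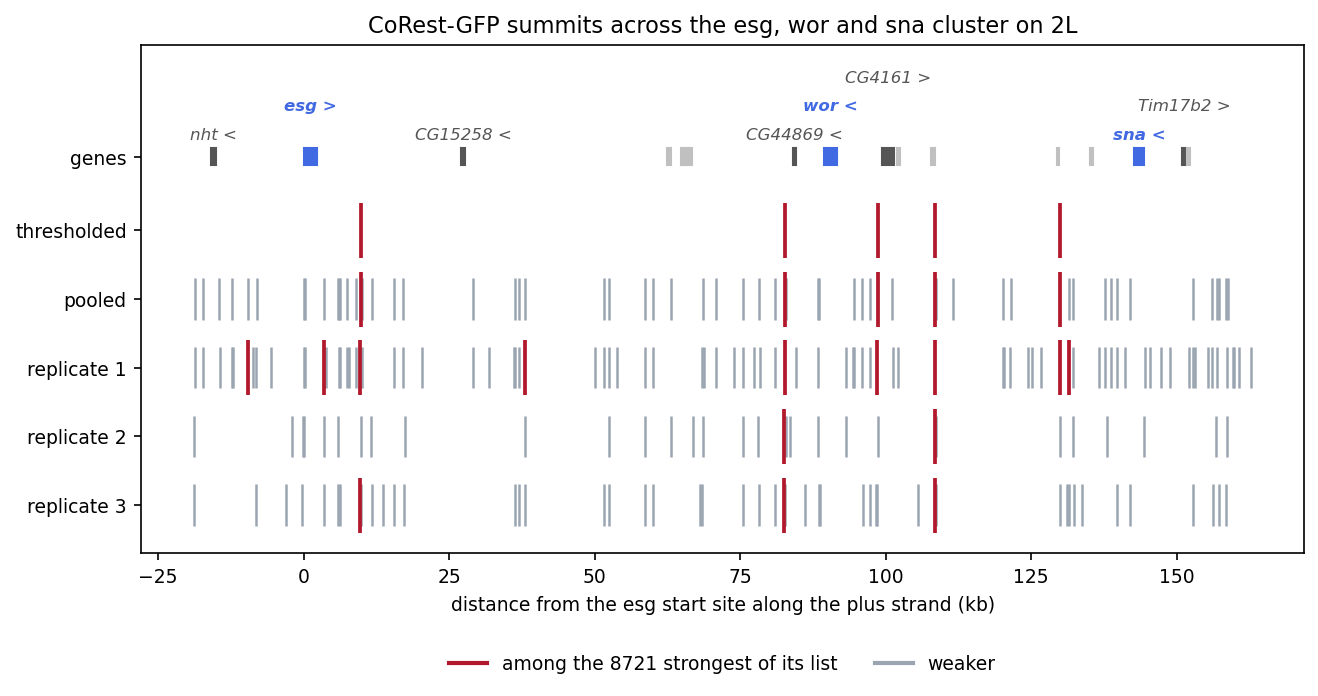
Summits in each list (rows) across the cluster on 2L, against distance in kb from the esg start site; red marks are among the 8721 strongest peaks of their list and grey marks are weaker. Blue boxes are esg, wor and sna, dark grey boxes other protein-coding genes and light grey boxes non-coding genes, with > or < for the strand. The thresholded row has 5 marks, none on a blue box, and the replicate 1 row has 84.

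The start site of esg carried weak peaks in every replicate, below the reproducibility threshold. In the pooled list 2 summits lay there, 11 bp upstream of the start site at rank 11279 and 188 bp downstream at rank 17411. Replicate 1 had summits at the same 2 positions, at ranks 9196 and 14038. Replicate 2 had one 169 bp upstream at rank 10243 and one 35 bp downstream at rank 19093, and replicate 3 one 199 bp upstream at rank 23752. A summit within 500 bp of a start site in all 3 full lists was present at 42.8% of protein-coding genes. The stronger pooled summit was found within 100 bp in 2 of the 3 replicates, since the summit of replicate 3 lay further upstream.

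The strongest peak of the esg interval was downstream of the gene. Its summit lay 9780 bp from the start site and 7508 bp beyond the end of the gene (2L 15343424 to 15343867, rank 6349), and its ranks were 5777, 9010 and 6745 in replicates 1 to 3 (7177 ± 1659, SD, n = 3). All 3 replicates held it, and replicate 2 placed it just past the length of the thresholded list. A weaker summit found in all 3 replicates stood 3543 bp downstream of the start site at rank 9046, with replicate ranks 8519, 13051 and 10640. That peak was inside the first 8721 in replicate 1 and outside in the other two. Of the next strongest, one at 2L 15324272 (rank 9401) was found in replicate 1 alone, at rank 5676, and one at 2L 15315147 (rank 13300) had ranks 10458, 27128 and 20933. Around the esg start site no thresholded summit lay for 71275 bp, and 3.32% of gaps between neighbouring thresholded summits in the genome were as long. Gaps were counted once each, while a position is likelier to fall in a longer gap, so 3.32% understates how often one would. Both windows below span 100 bases on each side of a pooled summit, are read on the plus strand of the RefSeq copy of dm6, and are shown to compare the intergenic peak (chr2L:15343546-15343746) with the start site (chr2L:15333755-15333955). Capitals mark E-boxes of the general form CANNTG. The downstream window had a GC content of 24.9% and 1 E-box, CATTTG, while the start site window had 50.7% GC and no E-box.
esg downstream summit: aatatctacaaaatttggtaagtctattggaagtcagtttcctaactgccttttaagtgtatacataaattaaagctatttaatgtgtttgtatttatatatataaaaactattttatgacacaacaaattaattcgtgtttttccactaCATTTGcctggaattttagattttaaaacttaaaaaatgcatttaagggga
esg start site summit: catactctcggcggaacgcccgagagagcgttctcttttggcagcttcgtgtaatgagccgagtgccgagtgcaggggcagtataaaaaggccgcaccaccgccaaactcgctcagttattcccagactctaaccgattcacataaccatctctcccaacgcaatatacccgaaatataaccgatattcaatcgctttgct

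Worniu had the strongest peak of the cluster in its interval, but none at its start site. In every list the 500 bp on each side of the wor start site were empty. The nearest summits stood 1526 bp upstream in replicate 1 (rank 22896), 1470 bp upstream in replicate 2 (rank 19256) and 2995 bp downstream in replicate 3 (rank 23353). The gene body of 2284 bp held no summit in any list.

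The 3 thresholded summits of the wor interval lay on both sides of the gene. The strongest was 16795 bp upstream of wor (2L 15442308 to 15442529, rank 2461), with ranks 1726, 3804 and 4485 in replicates 1 to 3 (3338 ± 1437, SD, n = 3). It was the highest-ranked summit of the cluster in each replicate, and it lay 774 bp downstream of the start of the non-coding gene lncRNA:CR44862, just outside its annotated span. The second stood 9060 bp downstream of the wor start site and 6777 bp past the gene's end (2L 15416298 to 15416741, rank 5825, replicate ranks 5028, 7251 and 7152). Both were among the 8721 strongest in all 3 replicates. The last lay 6880 bp upstream of wor and 849 bp upstream of the neighbouring gene CG4161 (2L 15432238 to 15432681, rank 8142), and was within the 8721 strongest in replicate 1 alone, with ranks 7094, 13422 and 10852. Another 2 pooled summits, below the threshold, had ranks 10471 (10709, 13424 and 12187 in the replicates) and 12792 (8955 in replicate 1, 28281 in replicate 3, none in replicate 2). The sequence at the strongest summit (chr2L:15442275-15442475) is given because no other summit of the cluster ranked as high. It had 23.4% GC, and the capitals mark its single E-box, CAATTG, 40 bases before the summit.
wor upstream summit: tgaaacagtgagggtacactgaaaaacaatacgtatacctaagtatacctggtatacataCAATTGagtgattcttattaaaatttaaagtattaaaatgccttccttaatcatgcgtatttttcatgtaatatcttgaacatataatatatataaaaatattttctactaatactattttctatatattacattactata

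The sna start site lay in a long stretch without pooled summits. No pooled summit lay between 2448 bp downstream of the sna start site (rank 25931) and the far side of the neighbouring gene Tim17b2, a gap of 10907 bp that takes in the sna gene and the sequence upstream of it, where the proximal and the distal (shadow) enhancer of sna are known to lie. Gaps as long made up 8.47% of all gaps between neighbouring pooled summits. Around the sna start site the gap was 3382 bp in replicate 1, 12490 bp in replicate 2 and 10910 bp in replicate 3. Gaps as long made up 28.3%, 6.95% and 8.64% of the gaps in those lists. The pooled gap was not empty in replicate 1. Besides a summit at the start site, that list had weak summits upstream of sna there, at ranks 29937, 19615, 24427 and 18256. A position is likelier to fall in a longer gap, so these shares too understate how often one would. The single replicates did place weak summits at the start site: replicate 1 had one 114 bp upstream at rank 21072 and replicate 2 one 90 bp downstream at rank 22965, while replicate 3 had none closer than 2457 bp (rank 29293). These positions lay on opposite sides of the start site and over 100 bp apart, so no summit at the sna start site was found in a second replicate.

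The 1 thresholded summit of the sna interval stood 14506 bp downstream of the sna start site and 12839 bp past its end, 500 bp from the start of lncRNA:CR44863 (2L 15463532 to 15463975, rank 7674). Its ranks were 5560, 13883 and 11209 (10217 ± 4249, SD, n = 3), so replicate 1 placed it inside the first 8721 and the other two did not. The next pooled summits of the interval had ranks 10741, 11281, 15538 and 15639, and each was found in 2 of the 3 replicates. Its window (chr2L:15463654-15463854) is printed for the heptamer in capitals that starts 2 bases after the summit, CTACCTG, the reverse complement of CAGGTAG, which is the site of the early embryonic activator Zelda. The other capitals mark an E-box, CATTTG. The window had 29.9% GC.
sna downstream summit: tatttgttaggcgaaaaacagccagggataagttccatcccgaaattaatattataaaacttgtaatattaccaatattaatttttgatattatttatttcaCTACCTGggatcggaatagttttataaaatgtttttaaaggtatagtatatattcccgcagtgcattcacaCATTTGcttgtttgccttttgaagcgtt

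Between the 3 gene intervals no thresholded summit was found. The 47158 bp between the esg and wor intervals held 10 pooled summits, the strongest at rank 9381 (replicate ranks 9113, 11347 and 9541) and rank 9395 (6495, 24435 and 14397). Both were found in all 3 replicates and lay just below the threshold at rank 8721. The 11012 bp between the wor and sna intervals held 2 pooled summits, each found in replicate 1 alone. A copy of the transposon blood fills 7412 bp there and held no summit in any list. Reads from repeated copies often cannot be placed, and mappability was not tested.

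Scratch was the 1 gene of the 4 with a thresholded summit at its start site. The summit lay 314 bp upstream (3L 3983360 to 3983803, rank 4016), and the replicates had it at ranks 3763, 5401 and 5183 (4782 ± 889, SD, n = 3), 332, 281 and 298 bp upstream. All 3 positions were within 100 bp of the pooled one, and all 3 ranks were in the first 8721. The scrt gene body, 10108 bp long, held no thresholded summit and 1 pooled summit, 765 bp downstream of the start site at rank 27303.

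**Figure D2:**
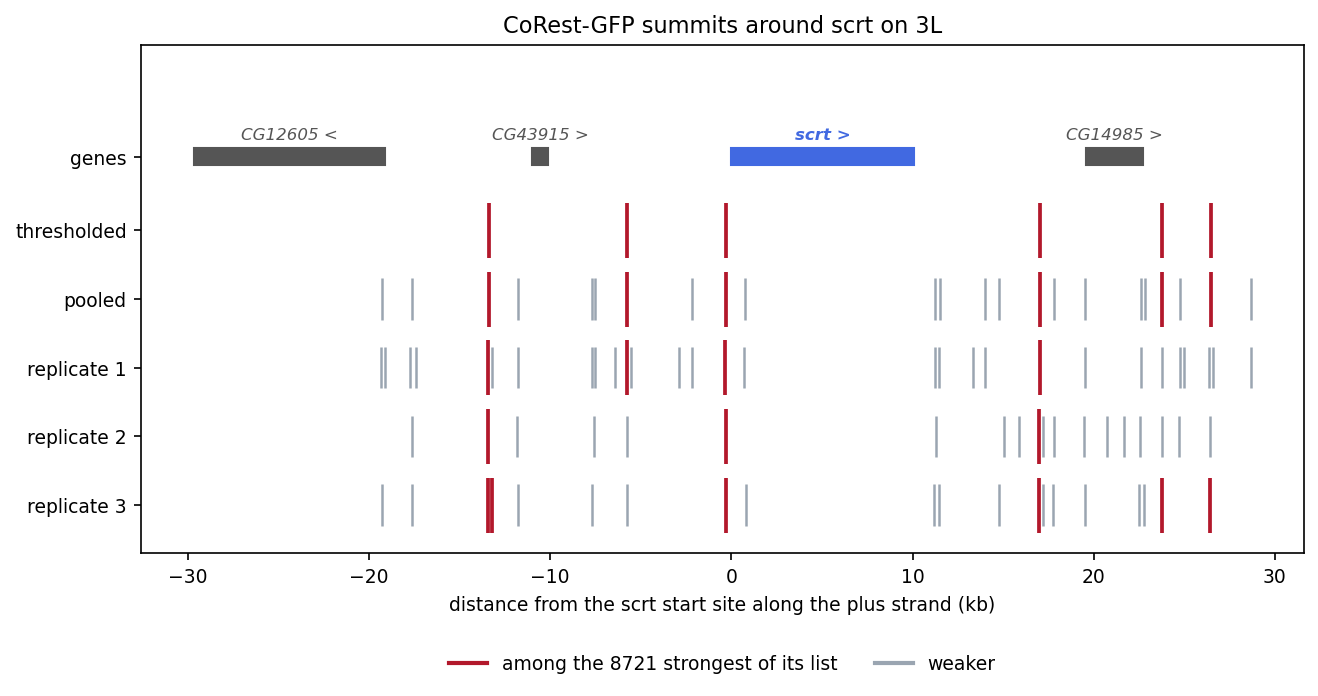
Summits in each list (rows) around scrt on 3L, against distance in kb from the scrt start site; red marks are among the 8721 strongest peaks of their list and grey marks are weaker. The blue box is scrt, grey boxes are its neighbours, and the thresholded row has 6 marks, 1 just left of the scrt start site and none inside scrt.

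The other 5 thresholded summits around scrt lay in the sequence on both sides of the gene. The strongest was 17054 bp downstream of the start site and 6947 bp past the gene's end (3L 4000921 to 4001036, rank 3282, replicate ranks 3611, 3351 and 2934). Its replicate summits were shifted by -1, -80 and -72 bp from the pooled one, so those of replicates 2 and 3 fell outside the pooled interval. These 2 replicates also had a weaker summit on the other side of the pooled one, at ranks 20233 and 9310. The start site nearest to the strongest summit was that of CG14985, 2524 bp away. The next was 13383 bp upstream of scrt (3L 3970441 to 3970630, rank 3751, replicate ranks 4531, 4072 and 3137). The start site nearest to this summit was that of CG43915, 2386 bp away. It lay on the side of CG12605, another gene of Scratch type, whose nearest start site was 5742 bp from this summit. These 2 peaks and the scrt start site peak had close ranks in the replicates, with the worst rank 1.23, 1.44 and 1.44 times the best. Another 2 summits, beyond the neighbouring gene CG14985, followed, 26455 bp from the scrt start site at rank 6849 (replicate ranks 9257, 9621 and 5011) and 23751 bp from it at rank 8130 (12043, 9223 and 5788). The last, 5756 bp upstream of scrt at rank 8013, had the widest spread in rank of all 11 summits, with replicate ranks 4785, 14505 and 24143. The start site of CG43915 was nearer to it, at 5241 bp. The windows of the strongest peak (chr3L:4000850-4001050) and of the start site peak (chr3L:3983482-3983682) are shown side by side. Neither has an E-box, so neither has capitals, and their GC contents were 31.3% and 39.8%.
scrt downstream summit: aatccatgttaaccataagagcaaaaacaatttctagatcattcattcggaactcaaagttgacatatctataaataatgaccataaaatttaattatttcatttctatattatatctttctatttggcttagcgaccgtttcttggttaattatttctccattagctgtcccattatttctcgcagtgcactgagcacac
scrt start site summit: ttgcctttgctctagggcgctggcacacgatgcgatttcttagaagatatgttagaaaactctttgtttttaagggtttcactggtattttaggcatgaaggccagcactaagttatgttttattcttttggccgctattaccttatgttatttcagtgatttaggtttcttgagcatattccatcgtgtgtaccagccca

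**Figure D3:**
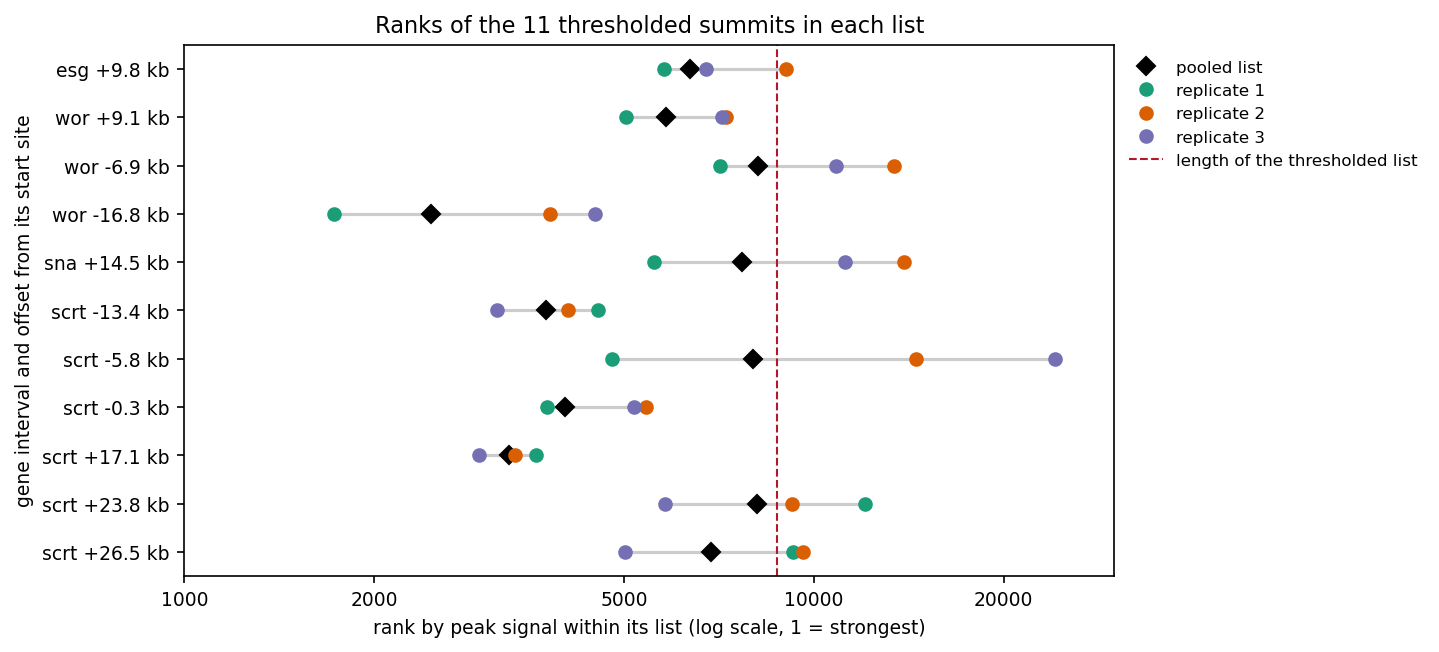
Rank of each of the 11 thresholded summits (rows, labelled by gene interval and offset from that gene's start site) in the pooled list (diamonds) and in replicates 1 to 3 (circles), on a log axis where 1 is the strongest peak; the dashed line is rank 8721. The wor summit 16795 bp upstream is furthest left, and the scrt summit 5756 bp upstream spans ranks 4785 to 24143.

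All 11 summits were found in each full replicate list, as were 88% of thresholded summits in the genome. In the shortened lists 5 of the 11 were found in all 3 replicates, against 65.4% of all thresholded summits, 1 in 2 replicates and 5 in 1 replicate. The median pooled rank was 6349 (5 cluster summits 6349, 6 scrt summits 5432.5), against 4361 for the whole list, and 4 of the 11 were among the 4360 strongest. The worst replicate rank was 1.89 times the best in the median, against 1.64 over the 7676 summits found in all replicates. With summits required to lie within 50 bp, the share found in all 3 replicates was 63.6%, and the share of all thresholded summits at 50 bp is not given here.

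As promoters, the Snail family genes were near the background. One of the 4 had a thresholded summit within 500 bp of a start site, against 35.4% of protein-coding genes, and in each shortened replicate list it was scrt, against 36.2%, 36.6% and 33.6%. With 4 genes, a share of 25% is no result about the family. In the pooled list 2 of the 4 had one, esg and scrt, against 51.8%. In the full replicate lists sna, esg and scrt had one in replicates 1 and 2, and esg and scrt in replicate 3, against 53%, 54.9% and 50.3%. Within 250 bp of a start site no member had a thresholded summit, and the scrt summit lies outside that distance. None of the 8 protein-coding genes with a start site in the cluster had a thresholded promoter summit.

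The 11 summits all lay outside annotated genes, against 45.6% of thresholded summits. Of the bases in the cluster and the scrt interval together 87.0% lie outside genes (91.6% in the cluster, 70.0% around scrt), against 30.5% of the genome, so the position is near what these intervals offer. Of the summits, 1 of 11 lay at a protein-coding start site, within 500 bp, against 47.5%. Over 2 kb from any start site lay 6 of 11, against 29.9%, and the shortened replicate lists gave 61.5%, 40% and 66.7% for the summits of these intervals. Of the 6, 5 were around scrt and 1 was at esg, as the non-coding genes and the small genes CG44869 and CG4161 supplied nearby start sites in the cluster. The distal share was 37.5% with flanks of 10 kb and 33.3% with flanks of 50 kb. The cluster has 8 protein-coding genes in 184395 bp and the scrt interval 4 in 50108 bp. How much of this sequence lies near or far from start sites was not computed. Its part in the promoter and distal shares was not tested.

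Counts per gene interval set esg and sna low and scrt above the middle. All protein-coding genes, each over its span plus 20 kb, had a median of 4 thresholded summits (quartiles 2 and 6) in a median interval of 42166 bp. With 1 summit each, esg and sna stood at a count that 21.4% of genes did not exceed, and wor with 3 at a count that 46.3% did not exceed. The 6 at scrt were reached or exceeded by 30.7% of genes, in a longer interval than the median one. In the pooled list the counts were 13 for sna, 19 for esg, 16 for wor and 23 for scrt, and 40.9%, 16.5%, 26.4% and 8.15% of genes had as many or more.

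**Figure D4:**
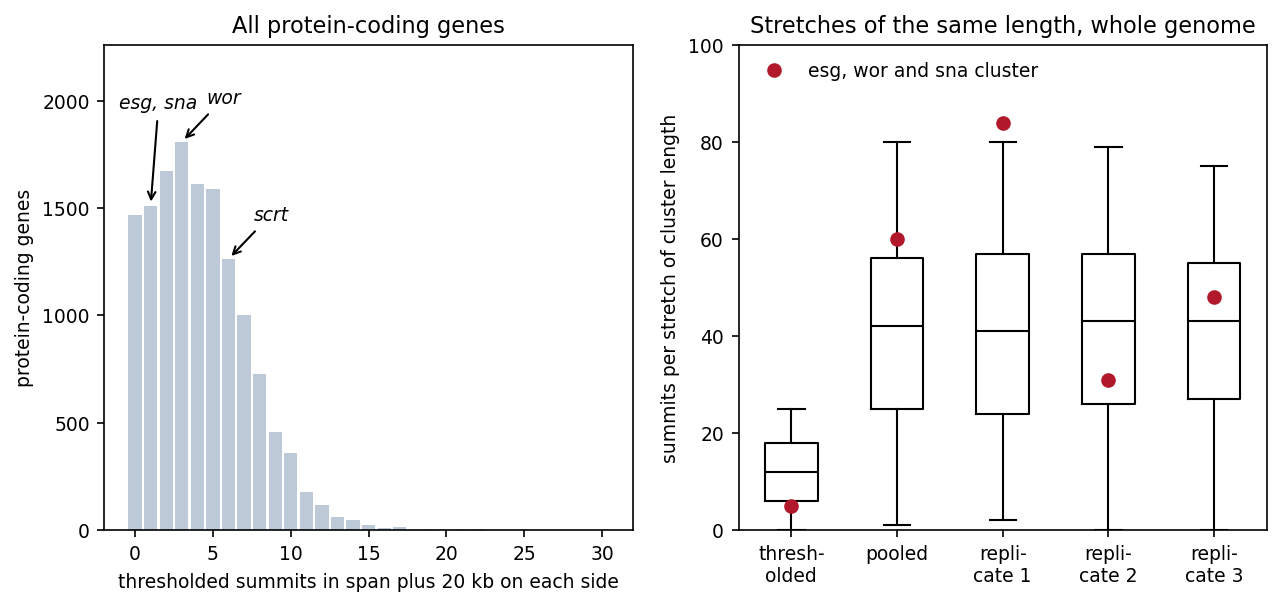
Left, number of protein-coding genes by the count of thresholded summits in the span plus 20 kb, with arrows at the 4 Snail family genes; right, summits per stretch of 184395 bp over the genome in each list (box, quartiles with the median; whiskers, 5th to 95th percentile) with the esg, wor and sna cluster as red points. The cluster lies at 5 in the thresholded list, below the median of 12, and at 84 in replicate 1, above the upper whisker.

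Over the whole cluster, counts of thresholded peaks were in the lower part of the range and counts of weak peaks in the upper part. The median stretch of that length had 12 thresholded summits, while 21.2% had as many as 60 pooled summits or more (median 42). The cluster is also poor in genes: 20.1% of stretches had as few as its 8 protein-coding genes (median 19). Of its pooled summits 5 of 60 passed the threshold (8.33%), against 29.1% of all pooled summits, and around scrt 6 of 23 did (26.1%).

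The abundance of weak peaks in the cluster rested on replicate 1. Its full list had 84 summits there, a count reached by 3.73% of stretches. The 31 of replicate 2 were reached by 68.7% and the 48 of replicate 3 by 40.8%. Of the 84, 52 (61.9%) had no summit of another replicate within 100 bp, against 35.3% of all summits of replicate 1. In replicates 2 and 3 these shares were 29.0% and 29.2%, against 34.6% and 31.9% over their whole lists. The difference between replicates was seen at each gene of the cluster, with 23, 9 and 13 summits at esg, 18, 10 and 15 at wor, and 26, 6 and 11 at sna in replicates 1 to 3. Around scrt the counts were 29, 19 and 20. The replicates' depth is unknown, and its part in this difference was not tested.

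Below the threshold, 10 pooled summits of these intervals were found in all 3 full replicate lists. In the cluster they were 6 of 55 (10.9%) and around scrt 4 of 17 (23.5%), against 22% of all pooled summits below the threshold, and 41.2% of all pooled summits. Found in 1 replicate alone were 24 of the cluster's 60 pooled summits and 5 of the 23 around scrt, against 25.2% of all. The strongest of the recurrent weak peaks was the one 3543 bp downstream of the esg start site described above. Around scrt the strongest was at rank 11437 (10615, 12079 and 14101), 8327 bp from the start site of CG14985, followed by one 69 bp upstream of that start site at rank 12290 (12374, 9721 and 17140).

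The Snail E-box itself was not seen at the summits. None of the 11 windows of 100 bp on each side held CAGGTG on either strand. With 11 windows the exact 95% interval reaches 28.5% and covers counting error only, and 4.61% of all thresholded windows held it. Within 200 bp, 2 of the 11 held it, the downstream summit of esg and the summit 6880 bp upstream of wor, against 9.69% of all. Of the other sequences searched on both strands, the Zelda heptamer CAGGTAG was in 1 window, that at sna, against 0.757% of all windows. Any E-box, CANNTG, was in 3 of 11, namely the printed windows of esg, wor and sna, against 57.5%. These 3 E-boxes were CATTTG at esg and sna and CAATTG at wor. The exact 95% intervals were 0.23% to 41.3% for the Zelda heptamer and 6.02% to 61.0% for any E-box. Each holds the share of all windows, so neither count is set apart from it.

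For motifs of other factors the counts were near the shares of all windows or too small to set apart from them. The GATA factor site GATAAG was in 1 window, that of sna, against 10.7%, and GAGAG, bound by the GAGA factor, in 2, against 18.9%. The homeodomain core TAATTA was in 1 window, the strongest of scrt, which held it at 2 places, against 19.3%. None of the 11 had the Twist sites CATATG (7.27% of all) or CACATG (6.83%), the proneural E-box CAGCTG (7.4%), the core promoter site TATCGATA of DREF (4.72%) or TGGGAA of Su(H), the transcription factor of Notch signalling (10%). Sites of CANNTG form overlap the listed E-boxes by construction. The median GC content of the windows was 31.3%, that of the 5 cluster windows 24.9% and of the 6 scrt windows 33.1%, against 33.3% over all thresholded windows.

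Related genes were read from 6 lists of 47 genes in all, and 23 of them (48.9%; shortened replicate lists 46.8% ± 5.63, SD, n = 3) had a thresholded summit within 500 bp of a start site, against 35.4% of all protein-coding genes. Among corepressors and partners of CoRest these were 5 of 6, led by gro, a corepressor, at rank 385, HDAC1, the deacetylase of the complex, at 416, ebi, a part of a corepressor complex that works with Sna, at 625, and CoRest at 2642. With 6 genes in this list and in the next, a share is no result about the list. Both gro and CoRest have 4 start sites, which gives more windows to meet. The embryos also carry a CoRest transgene, and its part in the CoRest peak was not tested. CtBP, the corepressor best known to act with Sna, had none within 500 bp, its nearest thresholded summit being 722 bp from a start site. Among mesoderm and dorsoventral regulators they were 4 of 6: tin, a heart and visceral mesoderm factor, at rank 564 (replicate ranks 585, 390 and 634), Mef2, a muscle factor, at 5073, the receptor gene Tl at 6726, and twi, which with Dorsal activates sna, at 7625. The genes dl and zld, whose products activate sna in the early embryo, had none within 500 bp. Their nearest thresholded summits were 580 bp and 8776 bp from a start site.

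Genes of the ventral embryo linked to Sna had a promoter summit in 4 of 13 cases (30.8%), near the 35.4% of all protein-coding genes. These were stumps, a component of fibroblast growth factor signalling, at rank 534, the receptor gene htl at 1166, shg, the E-cadherin gene, at 2073, and the polarity gene crb at 3955. Among the 9 without one, brk had 15 thresholded summits in its span plus 20 kb, the nearest 737 bp from the start site, and Delta had 0. Of 13 neuroblast and neural genes 5 had one (38.5%), also near that share. Among them were the neuronal gene elav at rank 78, numb, a cell fate determinant, at 179, brat at 2161, and mira, a cortical adaptor, at 6521. The mira summit was found in replicate 1 alone, at rank 3955. The proneural gene ac and the related gene ase had none. Their relatives sc and l(1)sc, named after their values were seen, and ac had 0 thresholded summits in their spans plus 20 kb.

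Gut and imaginal genes had a promoter summit in 4 of 7 cases (57.1%, against 35.4% of all protein-coding genes), with the mitotic cyclin gene CycA at rank 3046, the Notch receptor gene N at 4591, the cell adhesion gene ed at 6280 and nub, for a POU homeodomain factor, at 7742. The genes fz and ktub had none within 500 bp, their nearest thresholded summits being 549 bp and 8571 bp from a start site. With 7 genes, a share of 57.1% is no result about the list. Of the 2 other zinc finger genes of Snail or Scratch type, Kah had one at rank 1144, with replicate ranks 1094, 815 and 1506 (1138 ± 348, SD, n = 3). CG12605, the neighbour of scrt, had none, and 5 thresholded summits in its span plus 20 kb, some of which are those counted for scrt.

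**Figure D5:**
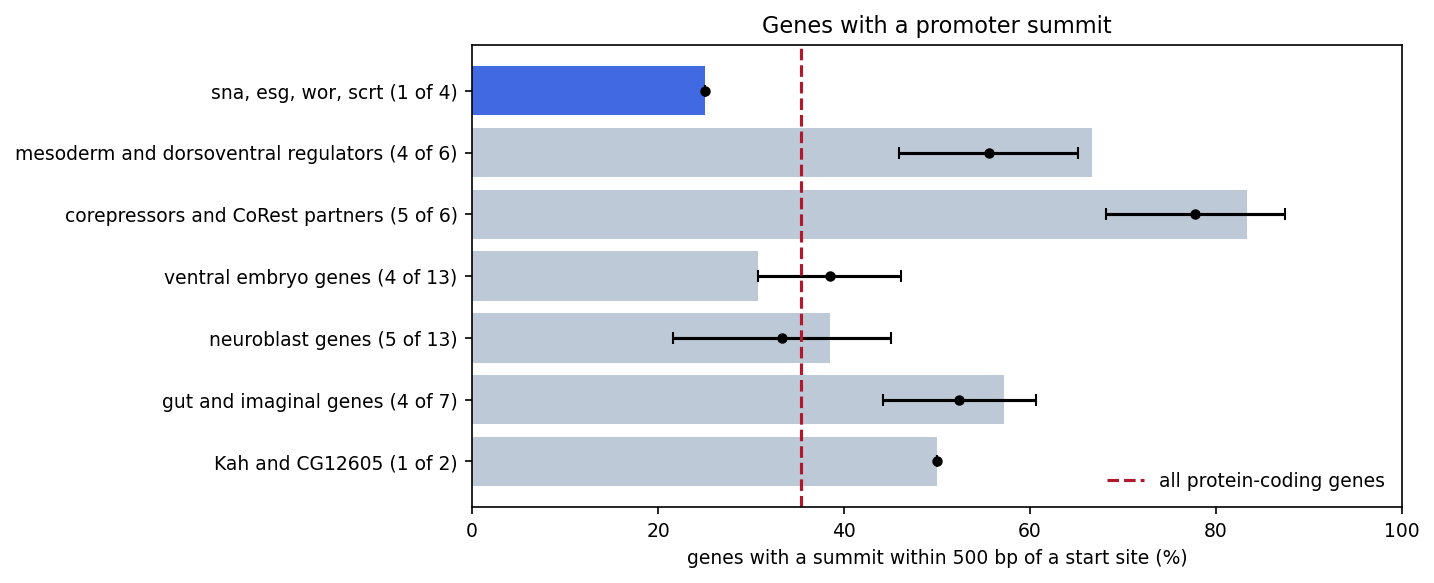
Share of genes in each list with a thresholded summit within 500 bp of a start site (bars, with counts in brackets), the mean and SD of the 3 shortened replicate lists (points with error bars) and the share of all protein-coding genes, 35.4% (dashed line). The Snail family bar is at 25%, from scrt alone, and the bar of corepressors and CoRest partners is at 83.3%, from 5 of 6 genes. Lists this short give no result about the list.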

How the data were processed

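CoRest-GFP ChIP-seq peaks of 3 replicate embryo samples were used as deposited. Per the deposited file listings, each list used the same control file, the pooled list came from all 3 alignments on dm6, and the thresholded list from the other 4 lists. Neither labels nor listings name the peak caller, the aligner or the threshold, or define the deposited peak signal, which served here for ranks inside each list and nothing else. Chromatin was sheared to 200 to 800 bp, per the labels.

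Summits are the interval start plus the deposited offset, written 1-based. The gene annotation was Ensembl release 115, and bases were read from the RefSeq copy of the same assembly, after chromosome lengths and the 4 genes' coordinates were compared. Transposon records were left out of start sites. Backgrounds are all protein-coding genes, all thresholded summits or 723 non-overlapping stretches. No test was made, because there is 1 group, and intervals cover counting error only. Counting functions were tested on simulated data (Python 3.11.15, pandas 2.3.3, scipy 1.17.1).

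The genes, lists and motifs were chosen with earlier results of these data known. Named were the 4 genes, the 5 strongest summits per interval, and up to 4 bound and 2 unbound genes per list; 3 symbols on the lists needed a synonym to match. Alternatives were other flanks, windows, match distances and list lengths, and each replicate left out. Protein sequences were not used here.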

Additional observations from a re-analysis of the deposited data

How the results depend on the processing

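Of 66 values recomputed under alternatives, 35 stayed within 1 SD of the replicates, within 1.5 times a count or within the exact 95% interval, and 31 moved. The main values were 5 thresholded summits in the cluster, 6 at scrt, a median rank of 6349, 54.5% of summits over 2 kb from start sites, and 100% found in 3 replicates. A flank of 10 kb gave 3 summits at scrt and 37.5% distal, and one of 50 kb gave 12 and 33.3%. The 4360 strongest peaks gave 1 summit in the cluster, 3 at scrt, a median rank of 3516.5 and 14 listed genes with a promoter summit in place of 23, and the 1 of 4 members then lies above the 21.8% of all genes. The 17442 strongest pooled peaks gave 29 and 14 summits, 48.8% found in all 3 replicates, a median rank of 11468, 72.1% distal, the Snail E-box in 6.98% of windows and 2 members with a promoter summit, esg and scrt, above the 45.8% of all genes there, where the main 1 of 4 lies below 35.4%. Summits within 50 bp lowered the share found in all replicates to 63.6%, and shortened lists to 45.5%. Start sites within 250 bp left 0 members with a promoter summit, windows of 200 bp on each side put the Snail E-box in 18.2%, above the 9.69% of all windows, where the main 0 lies below 4.61%, and a limit of 5 kb left 27.3% distal. No share over all peaks is given for the 50 bp match, the 5 kb limit, or the replicate, distal and Snail E-box shares at 17442 peaks. With each replicate left out in turn, the cluster had 2 to 3 summits and scrt 3, the median rank was 3751 to 3883.5, and 40% to 50% were distal. These last values use only summits held by both other shortened lists, which removes the weaker ones by construction. No paired analysis was possible because there is 1 group. Depth per replicate is unknown.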
